A study of Caenorhabditis elegans with 59 samples.

Results

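miR-43 was followed through 59 small RNA libraries of Caenorhabditis elegans, together with 3 edited forms of it. The 4 guide strands, mir-43, mir-43m1 (miR-43(M1)), mir-43m2 (miR-43(M2)) and mir-43m3 (miR-43(M3)), were taken by name from the 310 strands of the miRNA count table. Wild-type miR-43 was read in all time course and ju699 libraries, and in the mir-43 experiment each strain was read by the form that it carries.

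Each comparison set ebax-1 mutants against controls in whole animals. The time course held 32 libraries, 2 per genotype and stage. Its mutants were ebax-1(tm2321) early embryos, late embryos, L1, L2, L3 and L4 larvae and gravid adults, set against N2 wild-type animals of the same stage, and its germline-depleted adults were glp-4(bn2); ebax-1(tm2321) set against glp-4(bn2), both raised at 25 °C. L1 larvae of ebax-1(ju699), another null allele, had 2 libraries, against 2 of wild type. The mir-43 experiment used L4 larvae, with 3 libraries of each edited strain with ebax-1(tm2321) and 3 of each with ebax-1 intact, 2 of ebax-1(tm2321) with wild-type mir-43 and 3 of wild type. The variants were made at the endogenous locus with Cas9, each is 1 edited form of 1 hairpin, and M2 and M3 lines had been backcrossed to N2 to remove a dpy-10 marker. All animals but the glp-4(bn2) strains were raised at 20 °C. Late embryos had 6 h in buffer after isolation, and L1 larvae were collected starved. L2, L3 and L4 larvae and gravid adults had about 16, 28, 42 and 68 h on food, and germline-depleted adults about 48 h. The libraries of gravid adults had been published before.

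A miRNA hairpin gives a guide strand, which stays bound to an Argonaute protein and directs repression of mRNAs, and a passenger strand, which is normally discarded soon after processing. The seed, near the 5′ end of the guide, pairs to most targets, whereas the 3′ region adds pairing to some. EBAX-1 is the worm ortholog of ZSWIM8, the substrate receptor of a ubiquitin ligase that, in target-directed miRNA degradation, acts on Argonaute when an RNA pairs extensively to its miRNA, after which the miRNA is degraded. Because guide and passenger strands are made together, the passenger strand serves as a readout of production.

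The mir-43 hairpin lies at chrII:11889910-11890007 on the plus strand (WBcel235, Ensembl annotation), and overlaps the annotated gene ZK930.12. The guide is the 3p arm, at chrII:11889970-11889992, and the passenger strand is the 5p arm, at chrII:11889930-11889953. The hairpin of mir-42, a member of the miR-35 family, ends 4 bases upstream, and that of mir-44 starts 15 bases downstream. The study treats all 3 as products of 1 primary transcript. miR-43 shares its seed with miR-2, miR-250 and miR-797, the other members of the miR-2 family. In M1 the seed was inverted, in M2 the 3′ region was replaced with random sequence, and in M3 it was replaced with the 3′ region of miR-82.

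Levels are read counts scaled to the miRNA total of the library (CPM), so each is a share of the miRNA pool. Library totals ran from 1343153 to 20538418 counts in the time course and from 302789 to 16014208 in the mir-43 experiment, where the smallest library, replicate 2 of mir-43(M3); ebax-1(tm2321), stood far below the next at 5938734. In whole animals, fewer cells that express a miRNA cannot be told apart from less of it per cell. Two-sided tests were run across all strands that passed a filter on low values, with edgeR's quasi-likelihood test for levels and limma for ratios, both with Benjamini-Hochberg adjustment. A call is an adjusted p under 0.01 for an effect of ebax-1 and under 0.05 elsewhere. Where groups are said not to overlap, this describes those libraries only, since the share of all strands without overlap was not computed.

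miR-43 was highest in embryos in both genotypes, and its group means spread over a narrower range among ebax-1 mutants than among controls. The highest mean level was 18482 ± 1477 CPM in mutant early embryos (SD, n = 2) and the lowest was 586 ± 83.4 CPM in glp-4(bn2) adults (SD, n = 2). The highest group mean was 2.74-fold above the lowest among the 8 mutant groups, and 18.77-fold among the 8 control groups. The mutant value rested on L2 larvae, whose 2 libraries lay far apart, and was 5.47-fold without L2 replicate 2, the highest over left-out libraries, while the control value ran from 17.05-fold to 20.86-fold. The order from the top began with mutant early embryos, mutant late embryos (15824 CPM), mutant L1 larvae (11256 CPM) and wild-type early embryos (10996 CPM), and the last of these overlapped with mutant L1 larvae. Neighbours overlapped all the way from wild-type late embryos (9073 CPM) through mutant L3 larvae, germline-depleted adults, gravid adults, L4 larvae and L2 larvae to wild-type L1 larvae (6168 CPM). Below these, wild-type L2 larvae, L3 larvae, gravid adults and L4 larvae and glp-4(bn2) adults each stood clear of the next.

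**Figure D1:**
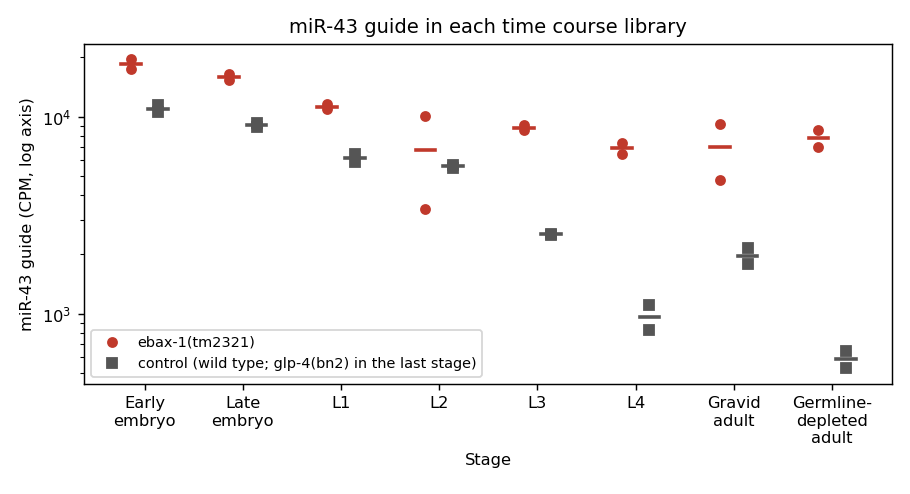
miR-43 guide in CPM (log axis) in each of the 32 time course libraries, by stage. Points are libraries and bars are means of 2. The mutant libraries lie above the controls at every stage but L2, where they fall at 3380 and 10125 CPM on either side of the wild-type libraries.

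From stage to stage, in a fit of all 32 libraries, miR-43 of wild-type animals dropped by 1.17 on the log2 scale in L3 relative to L2 (SE 0.29, adjusted p = 0.00263 by edgeR) and by 1.37 in L4 relative to L3 (SE 0.29, adjusted p = 0.000572 by edgeR). It was 1.07 higher in gravid adults than in L4 (SE 0.29, adjusted p = 0.00454 by edgeR), a call lost without L4 replicate 2 (0.93, adjusted p = 0.0592) or adult replicate 1 (0.89, adjusted p = 0.0695). These were common kinds of change, since 40.1%, 41% and 43.2% of the 227 strands were called in either direction in the same comparisons. In mutants none of the 3 steps was called, with log2 changes of 0.41 for L3 over L2, -0.26 for L4 over L3 and -0.29 for gravid adults over L4. The mutant step called was L2 against L1, at -0.86 (adjusted p = 0.0219, 37.9% of strands called), and it was lost without L1 replicate 2 (-0.83, adjusted p = 0.0964) or L2 replicate 1 (-0.51, adjusted p = 0.156). In embryos and from late embryos to L1, log2 changes of -0.39 and -0.54 in wild type were not called, with adjusted p of 0.279 and 0.115, but both were called in fits of the compared stages alone (-0.63 and -0.63, adjusted p = 0.000423 and 0.000101).

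In embryos and L1 larvae, miR-43 was higher in ebax-1 mutants by 0.84 to 1.05 on the log2 scale. Early embryos had 17438 and 19527 CPM in ebax-1(tm2321) and 11461 and 10531 CPM in wild type, a log2 fold change of 0.84 (SE 0.11, adjusted p = 2.28e-11 by edgeR). Late embryos had 16385 and 15262 CPM in mutants and 8875 and 9271 CPM in wild type (0.98, SE 0.04, adjusted p = 7.05e-12 by edgeR). L1 larvae had 10902 and 11610 CPM in mutants and 5890 and 6447 CPM in wild type (1.05, SE 0.09, adjusted p = 0.000596 by edgeR). The genotypes did not overlap at any of these stages, at which 15.5%, 13.4% and 7.25% of tested strands were called higher in mutants. The early embryo call was lost without mutant replicate 1 (1.03, adjusted p = 0.0383) or mutant replicate 2 (0.69, adjusted p = 0.148), and all 3 calls were lost in 1 fit of the 32 libraries (0.80, 1.02 and 1.00, adjusted p = 0.179, 0.0442 and 0.0249). In early embryos lin-4, a developmental timing miRNA, was lower in mutants (log2 fold change -4.55, adjusted p = 5.13e-29 by edgeR). This rested on 1 and 9 reads in mutants and 129 and 56 reads in wild type. Of the 5 timing miRNAs tested there, lin-4 was the 1 called, where 18.9% of all tested strands were called in either direction. The median log2 fold change of the 5 was -0.1. In L1 larvae the summed timing miRNAs were at 1312 and 601 CPM in mutants and 476 and 205 CPM in wild type. There let-7 was at 70.4 and 28.9 CPM in mutants and 2.89 and 3.05 CPM in wild type. The part that staging has in the miR-43 differences was not tested.

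miR-43 was also higher in mutant L3 and L4 larvae. L3 larvae had 8535 and 9032 CPM in mutants and 2527 and 2518 CPM in wild type, a log2 fold change of 1.93 (SE 0.07, adjusted p = 2.85e-05 by edgeR). L4 larvae had 6489 and 7313 CPM in mutants and 1100 and 823 CPM in wild type, a log2 fold change of 3.00 (SE 0.21, adjusted p = 0.00058 by edgeR). Mutant libraries lay well above both wild-type ones, at stages at which 8.29% and 5.38% of strands were called higher, and at L4 3 of 223 tested strands had a larger log2 fold change than miR-43. The L4 call was lost without wild-type replicate 2 (2.84, adjusted p = 0.0546). Beside it, the 5 developmental timing miRNAs summed to 51843 to 54869 CPM in mutant L4 libraries and 57069 to 65904 CPM in wild type, with let-7, which rises late in larval life, at 4900 and 7444 CPM in mutants and 11803 and 13700 CPM in wild type (log2 fold change -0.90, adjusted p = 0.0525 by edgeR). Germline-enriched miRNAs, mostly of the miR-35 family, summed to 37645 to 39818 CPM in mutant and 29597 to 31696 CPM in wild-type L4 libraries. Of these, 7 of 8 were called higher (median log2 fold change 2.39, against 0.014 over all tested strands), while miR-70 was at -0.56 (adjusted p = 0.0613). The list has 9 names, and miR-41, counted as miR-41-3p (log2 fold change 3.14), was left out of this sum and count. The study reports every member of the miR-35 family as itself sensitive to loss of EBAX-1, so this sum does not isolate germline content. The parts of staging and of germline content in the L4 value were not tested.

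In adults, mutant libraries lay above the controls in both comparisons, and the difference was called in animals depleted of the germline. Germline-depleted adults had 7048 and 8582 CPM in glp-4(bn2); ebax-1(tm2321) and 527 and 645 CPM in glp-4(bn2), a log2 fold change of 3.77 or 13.6-fold (SE 0.18, adjusted p = 0.00145 by edgeR; 5.83% of strands called higher). Gravid adults had 9211 and 4750 CPM in mutants and 2162 and 1775 CPM in wild type (1.93, SE 0.34), which did not reach the call at an adjusted p of 0.0345, in a comparison where 0.448% of strands were called higher. The mutant libraries of gravid adults lay apart from each other but above both wild-type ones, and DESeq2 called the difference (2.01, adjusted p = 2.41e-05), as did edgeR without wild-type replicate 1 (2.01, adjusted p = 0.00319) or 2 (1.86, adjusted p = 0.00831). In the controls, glp-4(bn2) adults had less miR-43 than gravid wild-type adults, by 1.18 on the log2 scale (SE 0.29, adjusted p = 0.00137 by edgeR; 59.5% of strands called in either direction), animals that also differ in age and temperature. In mutants the same comparison gave 0.75 (adjusted p = 0.0303), in a comparison where 54.6% of strands were called in either direction. This call was lost without any 1 of the 4 libraries (-0.25 to 0.84, adjusted p = 0.0546 to 0.994), and the sign changed without gravid adult replicate 2.

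L2 larvae were the exception. Mutant replicate 1 had 3380 CPM and mutant replicate 2 had 10125 CPM, against 5682 and 5513 CPM in wild type, so that one mutant library lay below and the other above both wild-type libraries. The log2 fold change was 0.32 (SE 0.39, adjusted p = 0.653 by edgeR; 6.25% of strands called higher). It became 0.91 (adjusted p = 0.00744) without mutant replicate 1 and -0.65 (adjusted p = 0.0135) without mutant replicate 2. The summed timing miRNAs were 20201 CPM in mutant replicate 1 and 11626 CPM in mutant replicate 2, against 22105 and 19346 CPM in wild type, mostly from lin-4, so the library with more miR-43 was also the one with less lin-4. The part of staging was not tested.

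The difference between neighbouring stages was tested as an interaction. The effect of ebax-1 was larger in L4 than in L3 larvae by 1.16 on the log2 scale (SE 0.21, adjusted p = 0.0103 by edgeR; 9.38% of strands called in either direction). This call was lost without wild-type L3 replicate 1 (1.14, adjusted p = 0.0582), mutant L3 replicate 1 (1.02, adjusted p = 0.105) or mutant L3 replicate 2 (1.13, adjusted p = 0.104). In the same interaction the passenger strands of miR-43 (2.03, adjusted p = 0.0283 by edgeR) and miR-44 (2.04, adjusted p = 0.0295 by edgeR) were also called, with larger values than the guide. None of the other 6 neighbouring comparisons passed for the guide: L3 exceeded L2 by 1.64 (adjusted p = 0.131 by edgeR, 0.0145 by DESeq2), and germline-depleted exceeded gravid adults by 1.95 (adjusted p = 0.0816 by edgeR, 0.0128 by DESeq2).

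The ju699 allele was read in L1 larvae. There miR-43 was at 5668 and 6579 CPM in ebax-1(ju699) and 4860 and 3163 CPM in wild type, without overlap, for a log2 fold change of 0.92 or 1.89-fold (SE 0.21). It was not called, with an adjusted p of 0.075 by edgeR (4.65% of strands called higher), whereas DESeq2 called it (adjusted p = 0.00484), as did edgeR without wild-type replicate 1 (1.204, adjusted p = 0.000138) or mutant replicate 1 (1.03, adjusted p = 0.00191). The effects of ju699 and tm2321 in L1 differed by -0.14 (SE 0.24, adjusted p = 0.878 by edgeR). Summed timing miRNAs were at 441 and 295 CPM in ju699 larvae and 517 and 520 CPM in their wild type, and miR-70 at 1161 and 798 CPM in ju699 larvae and 3614 and 3562 CPM in wild type. The germline-enriched list that holds miR-70 went the other way as a sum, mostly from the miR-35 family. That sum was at 112260 to 128961 CPM in ju699 larvae and 10070 to 17053 CPM in wild type. let-7 was the 1 strand called as differing between the alleles (-4.72, adjusted p = 0.0461 by edgeR; 0.472% of strands), and the part of staging was not tested.

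The passenger strand of miR-43 was far scarcer than the guide and was called higher at 2 of the 8 stages. It was at 20.96 to 23.18 CPM in late embryo and L1 mutant libraries, where guides outnumbered passenger strands 499 to 728 times, against 25.38 to 33.19 CPM and 232 to 300 times in wild type. It was called higher in mutants in early embryos (0.69, adjusted p = 0.000178 by edgeR) and L2 larvae (1.52, adjusted p = 0.0083 by edgeR), and at no other stage, where its log2 fold changes ran from -0.63 in L3 to 1.31 in L4, with 0.93 in gravid and 1.26 in germline-depleted adults. At those 2 stages the passenger strands of miR-42 (0.75 and 1.62) and miR-44 (0.57 and 1.25), from the neighbouring hairpins, were called higher as well. Of all tested strands, 15.5% in early embryos and 6.25% in L2 larvae were called higher.

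**Figure D2:**
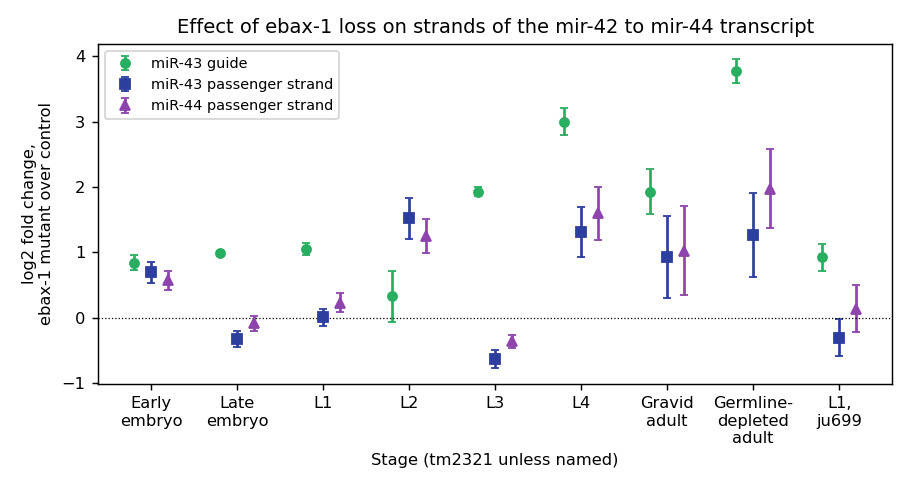
Log2 fold change in ebax-1 mutants over their controls (edgeR estimate, bars are SE, n = 2 and 2 libraries) of the miR-43 guide and of the passenger strands of miR-43 and miR-44, at the 8 stages with tm2321 and in ju699 L1 larvae. The guide lies above both passenger strands at all stages but L2, where it is at 0.32 and they are at 1.52 and 1.25.

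Guide per passenger strand was therefore compared within each library. The log2 ratio was higher in mutants by 1.29 in late embryos (adjusted p = 1.22e-13 by limma), 1.05 in L1 (adjusted p = 2.06e-05 by limma) and 2.54 in L3 larvae (adjusted p = 0.000313 by limma), at stages where 23.3%, 20.3% and 17.9% of guide-passenger pairs were called higher. In L4 larvae it was higher by 1.65 (adjusted p = 0.00131 by limma; 17.1% of pairs), a call lost without wild-type replicate 1 (1.34, adjusted p = 0.149). Whether the ratio changed by less in L4 than in L3 larvae was not tested. It was not called in early embryos (0.17, adjusted p = 0.356), gravid adults (1.15, adjusted p = 0.379) or germline-depleted adults (2.75, adjusted p = 0.0798), in the last of which the passenger strand rested on 45 and 242 reads in mutants and 84 and 32 reads in controls. In ju699 L1 larvae it was higher by 1.23 (adjusted p = 0.0363 by limma; 15.5% of pairs), and this call was lost without any 1 of the 4 libraries (0.88 to 1.58, adjusted p = 0.0554 to 0.732).

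L2 larvae went the other way. Guides outnumbered passenger strands 63.53 and 126 times in mutants and 295 and 194 times in wild type, and the log2 ratio fell by 1.38 (adjusted p = 0.025 by limma; 10.8% of pairs called lower). The mutant ratios lay below both wild-type ones, including that of the library in which the guide itself was high. This call was lost without wild-type replicate 1 (-1.09, adjusted p = 0.273).

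The guides from the same transcript, miR-42 and miR-44, were called higher at some of these stages. miR-42 averaged 8637 CPM in mutant and 2844 CPM in wild-type L4 larvae, and was called higher in late embryos (0.45), L1 (2.88), L3 (2.37) and L4 larvae (1.76), but not in early embryos (0.16, adjusted p = 0.26). It had log2 fold changes of 2.09 in gravid adults (adjusted p = 0.0171) and 3.71 in germline-depleted adults (adjusted p = 0.0174). miR-44, whose entry also holds miR-45 from a separate hairpin, was called higher in early embryos (0.53), late embryos (1.05) and L1 larvae (0.75). Its other log2 fold changes ran from 0.25 in L3 larvae (adjusted p = 0.115) to 0.91 in gravid adults (adjusted p = 0.109). In L4 larvae, 1 of the 5 other strands of the transcript was called higher, where 5.38% of all tested strands were. The median log2 fold change of the 5 was 1.31, against 0.014 over all tested strands.

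The other miRNAs with the seed of miR-43 showed 3 different courses. miR-2 was not called at any stage, with log2 fold changes of -0.22 in L2 to 0.28 in L4 larvae, and averaged 17179 CPM in mutant and 15690 CPM in wild-type L4 larvae. miR-250 was called higher in early embryos (0.41), late embryos (1.00), L1 larvae (0.80) and germline-depleted adults (3.06, adjusted p = 0.00543 by edgeR), where it averaged 2248 CPM in mutants and 276 CPM in controls. At these stages 15.5%, 13.4%, 7.25% and 5.83% of all tested strands were called higher. miR-797, the scarcest of the family, was called higher in germline-depleted adults alone (2.31, adjusted p = 0.00616 by edgeR), with 479 CPM in mutants and 99.0 CPM in controls, and stood at 1.68 in L4 larvae (adjusted p = 0.0375) and 2.43 in gravid adults (adjusted p = 0.0349). In L3 larvae, where miR-43 was higher by 1.93, miR-250 was at 0.10 and miR-797 at -0.58, and neither was called.

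**Figure D3:**
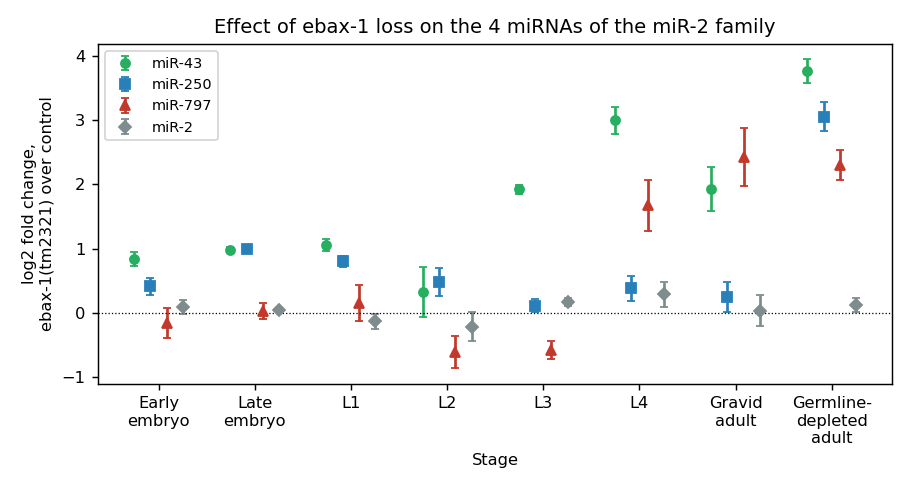
Log2 fold change in ebax-1(tm2321) over control (edgeR estimate, bars are SE, n = 2 and 2 libraries) of the 4 miRNAs of the miR-2 family at 8 stages. miR-43 has the largest value in L3 and L4 larvae (1.93 and 3.00) and in germline-depleted adults (3.77), while miR-2 stays between -0.22 and 0.28.

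The guides whose levels were most like those of miR-43 over the 16 time course groups, by Pearson's r of mean log2(CPM + 1) among 143 other guides, were miR-42 (0.877), miR-37 (0.856), miR-38 (0.842), miR-41-3p (0.837) and miR-40 (0.826). All 5 belong to the miR-35 family, which is abundant in embryos and the germline. In wild type, miR-37 was at 847 CPM in L1 larvae and 44823 CPM in early embryos, and miR-42 at 1679 and 17550 CPM, against 6168 and 10996 CPM for miR-43. In mutants, miR-42 was at 10884 CPM in L1 larvae and 18415 CPM in early embryos, close to miR-43 at both. By the log2 fold change of ebax-1 loss over the 8 stages, among 107 other guides, the most alike were miR-4813 (r = 0.989), miR-244 (0.92), miR-251 (0.844), miR-230 (0.822) and miR-74 (0.805). The sizes were unlike: in germline-depleted adults the log2 fold change was 3.77 for miR-43, 0.92 for miR-4813, 1.47 for miR-244 and 0.21 for miR-74. These correlations share libraries between genes and describe these groups only.

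In the mir-43 experiment, wild-type miR-43 was again higher without ebax-1. It was at 6652 and 7649 CPM in ebax-1(tm2321) L4 larvae and 1600, 1384 and 582 CPM in wild type, a log2 fold change of 2.69 or 6.44-fold (SE 0.32, adjusted p = 3.77e-06 by edgeR; 4.89% of strands called higher). The lowest value came from wild-type replicate 3, and without it the log2 fold change was 2.34 (adjusted p = 1.61e-06). The effect differed from that of time course L4 larvae by -0.18 (adjusted p = 0.955 by edgeR). Replicate 3, of which ebax-1(tm2321) alone has none, stood apart in miR-70 in each of the other 7 genotypes. miR-70, listed as germline-enriched, was at 1433 to 2359 CPM in these 7 libraries against 4082 to 22265 CPM in the 16 libraries of replicates 1 and 2. Another listed member, miR-42, was at 3393 CPM in wild-type replicate 3 against 1202 and 2336 CPM in replicates 1 and 2. It was at 2552 against 2472 and 2486 CPM in mir-43(M1), and 4828 against 5638 and 5666 CPM in mir-43(M1); ebax-1(tm2321). The germline content of replicate 3 was not tested. With the replicate number as a block in the fit of all 23 libraries, chosen after seeing the data, the effect was 2.63 (adjusted p = 3.25e-06 by edgeR), and no call of the mir-43 experiment changed.

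The seed-inverted form showed no detectable difference. miR-43(M1) was at 1631, 1543 and 1396 CPM with ebax-1(tm2321) and 1697, 1772 and 1523 CPM with ebax-1 intact, and the genotypes overlapped. The log2 fold change was 0.01 (SE 0.29, adjusted p = 0.976 by edgeR), in a comparison where 5.78% of strands were called higher, and its sign depended on the scaling (-0.13 with library size scaling and -0.0087 with DESeq2).

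Both forms with a replaced 3′ region had higher values without ebax-1 in all 3 libraries of each, and the difference was called for M3. miR-43(M2) was at 5129, 4742 and 4510 CPM with ebax-1(tm2321) and 3203, 2386 and 2832 CPM with ebax-1 intact. The groups did not overlap, but the log2 fold change of 0.89 (SE 0.29) did not reach the call in the fit of all strains (adjusted p = 0.0542 by edgeR; 5.33% of strands called higher). It was called in a fit of the 6 M2 libraries alone, without the replicate block (0.88, SE 0.14, adjusted p = 0.00716) and with it (0.90, adjusted p = 0.00974). miR-43(M3) was at 10750, 19654 and 10477 CPM with ebax-1(tm2321) and 5700, 6037 and 5607 CPM with ebax-1 intact, for a log2 fold change of 1.35 or 2.55-fold (SE 0.29, adjusted p = 0.00253 by edgeR; 6.22% of strands called higher).

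The highest M3 value, 19654 CPM, came from the smallest library, replicate 2. In that library the timing miRNAs summed to 36800 CPM, against 48804 and 62929 CPM in the other M3 mutant libraries and 63546 to 73982 CPM with ebax-1 intact, and the part of staging was not tested. Without it, the M3 log2 fold change was 1.00 and no longer called (adjusted p = 0.021). The call was also lost without mir-43(M3) replicate 2 (1.34, adjusted p = 0.011) or 3 (1.32, adjusted p = 0.0138), and in the fit of the M3 libraries alone with the replicate block (1.28, adjusted p = 0.012) or without it (1.34, adjusted p = 0.0342).

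**Figure D4:**
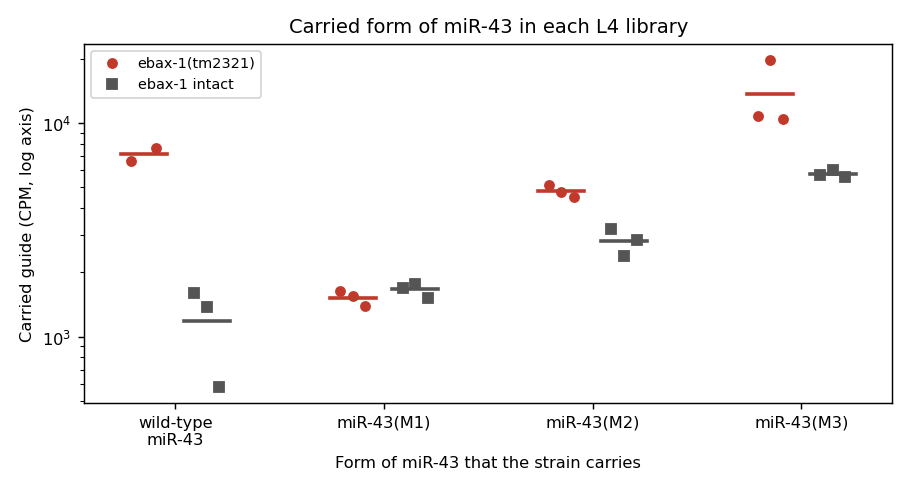
Guide of the form that each strain carries, in CPM (log axis), in the 23 L4 libraries of the mir-43 experiment. Points are libraries and bars are group means. Genotypes overlap for miR-43(M1) and do not overlap for the wild-type form, at 6652 and 7649 CPM against 582 to 1600 CPM, or for M2 and M3.

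Whether the forms differed in their response was tested over the 6 pairs of forms. The effect on miR-43(M1) was smaller than that on wild-type miR-43 by -2.67 on the log2 scale (SE 0.43, adjusted p = 0.00161 by edgeR), which was the 1 strand called among 225 (0.444%). The difference of M2 from wild type was -1.80 (SE 0.43, unadjusted p = 0.000532, adjusted p = 0.115 by edgeR), and passed by DESeq2 (-1.88, adjusted p = 0.00346) and by edgeR without wild-type replicate 1 (-2.12, adjusted p = 0.0223) or 3 (-1.45, adjusted p = 0.0217). That of M3 from wild type was -1.34 (unadjusted p = 0.00586, adjusted p = 0.659 by edgeR, 0.208 by DESeq2). Among the variants, M3 exceeded M1 by 1.33 (adjusted p = 0.318), M2 exceeded M1 by 0.87 (adjusted p = 0.998) and M3 exceeded M2 by 0.46 (adjusted p = 0.739), and none of these passed. The adjustment was over all 225 strands. With 1 library left out, these differences ran from 0.98 to 1.49, 0.76 to 1.01 and 0.11 to 0.62.

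The forms also differed in level. With ebax-1(tm2321), miR-43(M1) was below wild-type miR-43 (log2 fold change -2.25, adjusted p = 0.000326 by edgeR; 0.444% of strands called), while M2 (-0.59, adjusted p = 0.838) and M3 (0.93, adjusted p = 0.796) were not called. With ebax-1 intact, miR-43(M3) was 2.27 above wild-type miR-43 (adjusted p = 5.91e-05 by edgeR; 0.444% called higher), M1 was at 0.43 (adjusted p = 0.572) and M2 was 1.21 above it (adjusted p = 0.0299; 0.889% called higher). The M2 call was lost without mir-43(M2) replicate 1 (1.07, adjusted p = 0.17) or 3 (1.22, adjusted p = 0.0875). Reads of different sequence can be ligated and amplified unequally, which was not tested.

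Strands of the same transcript give the background of these differences. The miR-44 passenger strand averaged 55.0 CPM in ebax-1(tm2321) and 49.7 CPM in wild type, and its log2 fold changes of 0.26 with wild-type mir-43, 0.10 in M1, 0.34 in M2 and 0.78 in M3 were not called. Relative to it, wild-type miR-43 was higher by 2.57 without ebax-1 (adjusted p = 1.68e-05 by limma; 22.9% of the 83 pairs of this fit called higher, the others being guides with their own passenger strand), but M1 (-0.08, adjusted p = 0.949), M2 (0.54, adjusted p = 0.326) and M3 (0.42, adjusted p = 0.374) were not called.

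**Figure D5:**
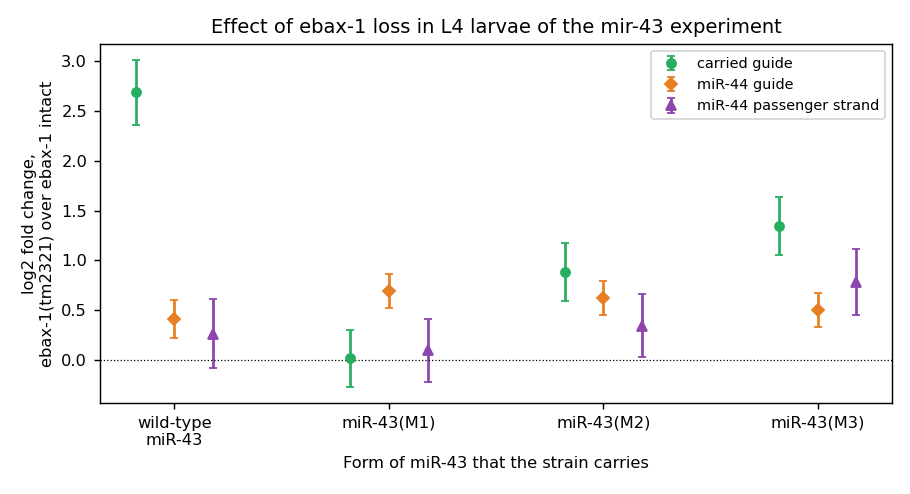
Log2 fold change in ebax-1(tm2321) over ebax-1 intact (edgeR estimate from the fit of 23 libraries, bars are SE) of the carried guide, the miR-44 guide and the miR-44 passenger strand, by the form of miR-43 that the strain carries. The carried guide is at 2.69 for the wild-type form, 0.01 for M1, 0.89 for M2 and 1.35 for M3, and the miR-44 guide is between 0.41 and 0.69 in all 4.

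Relative to its own passenger strand, wild-type miR-43 was higher by 2.43 (adjusted p = 0.0418 by limma; 22.9% of pairs called higher), with 311 and 286 guides per passenger strand in ebax-1(tm2321) and 106, 47.6 and 34.3 in wild type. This call was lost in 4 of 5 fits with 1 library left out (adjusted p up to 0.193) and held without wild-type replicate 1 (2.89, adjusted p = 0.0338). M2 had 100.03, 95.9 and 86.4 guides per passenger strand with ebax-1(tm2321) and 53.6, 55.2 and 55.2 with ebax-1 intact, without overlap. This log2 difference of 0.78 was not called in the fit of all strains (adjusted p = 0.65 by limma) and was called in the M2 libraries alone, with the replicate block (adjusted p = 0.0165) or without it (adjusted p = 0.00289). M3 had 260, 661 and 335 with ebax-1(tm2321), the middle value from 9 passenger reads, and 238, 150 and 235.15 with ebax-1 intact (0.94, adjusted p = 0.4). The M1 passenger strand had 60 reads in replicate 1 with ebax-1(tm2321) and 128 with ebax-1 intact, and is listed at 0 in replicates 2 and 3 of both genotypes, so no M1 ratio is given. Those 4 libraries widen the spread that all strains share, and without the mir-43(M1) libraries the adjusted p was 0.000446 for wild type, 0.256 for M2 and 0.143 for M3.

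Of the neighbouring guides, miR-44 averaged 17434 CPM in mir-43(M1); ebax-1(tm2321) and 11924 CPM in mir-43(M1), and its log2 fold changes were 0.41 (adjusted p = 0.121) with wild-type mir-43, 0.69 in M1 (adjusted p = 0.00855, called), 0.62 in M2 (adjusted p = 0.0223) and 0.50 in M3 (adjusted p = 0.0329). The miR-42 row was at 1202 to 7025 CPM in the 5 libraries with wild-type mir-43 and 2472 to 5666 CPM in the 6 M1 libraries, against 0.168 to 90.7 CPM in M2 and at most 29.4 CPM in M3. A separate row for miR-42 with a base change was at 1662, 1466 and 1408 CPM in mir-43(M2); ebax-1(tm2321) and 728, 772 and 729 CPM in mir-43(M2), without overlap, but its log2 fold change of 1.14 was not called (mir-42_g8t in the count table, SE 0.72, adjusted p = 0.309 by edgeR). That fit takes its spread from all 23 libraries, and outside the M2 strains the row was at most 17.3 CPM. No test of this row in the M2 libraries alone is given. The miR-42 passenger strand was at 0.64 to 1.43 CPM in M2 and at most 0.31 CPM in M3. It was at 11.9 to 29.4 CPM in the M1 libraries and those with wild-type mir-43. The M2 and M3 strains differ from wild type in the counts of both strands of a neighbouring miRNA as well as in miR-43. miR-82, the source of the M3 3′ region, averaged 9416 CPM in mutant and 14451 CPM in wild-type L4 larvae of the time course (log2 fold change -0.47, adjusted p = 0.134 by edgeR). In the mir-43 experiment miR-82 averaged 8024 CPM in ebax-1(tm2321) and 12670 CPM in wild type. The means without and with ebax-1 were 9005 and 13165 CPM in M1, 10063 and 13633 CPM in M2 and 8134 and 13164 CPM in M3. Libraries with and without ebax-1 overlapped in M3 only.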

How the data were processed

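The deposited values are read counts per miRNA strand. The authors trimmed adapters, assigned reads by their first 19 nt to listed strands and left out spike-in RNAs. The submitters' processing notes name cutadapt, DESeq2 and WBcel235, and their versions were not given in the sources used. No column of per-sample values was left unused in the miRNA table, and piRNA counts were not used. CPM were computed from the total of each library. Strands that averaged at least 5 for CPM + 1 in control libraries (in all 32 libraries for changes between stages) were tested with edgeR 4.0.16 (TMM, quasi-likelihood) in R 4.3.3, with Benjamini-Hochberg adjustment. Each stage was fitted on its 4 libraries and the mir-43 experiment on its 23. There, the form that a strain carries stood for miR-43 in 1 row. Ratios were tested as log2 of (CPM + 1) over (CPM + 1) with limma 3.58.1. DESeq2 1.42.0 was an alternative, and scaling, filter, pseudocount, samples in the fit, replicate block and each left-out library were others. Same-numbered replicates were taken as paired where their deviations from group means correlated above 0.1 in each of 3 pairs. This held for mir-43(M2) (0.152 to 0.319) and mir-43(M3) (0.127 to 0.422), and comparisons with fewer pairs could not meet it. The tests were checked on simulated data, where edgeR recovered 6 of 10 strands changed 4-fold and 0 of 10 changed 2-fold in L4 larvae, and 8 and 2 of 10 for wild-type mir-43 in the mir-43 experiment. No replicates were copies of each other. The study calls the replicates of the time course biological replicates. The labels do not say whether replicates came from separate cultures, so p-values measure the spread between libraries. Members, lists and named miRNAs (the forms, strands of the same transcript, the seed family, miR-82, stage markers, and the 5 guides most alike in level and in fold change) were chosen with earlier results of these data known. miR-70, also on the list of germline-enriched miRNAs, let-7 and, for replicate 3, miR-42 were singled out by library after their values were seen. Genomic positions come from the Ensembl annotation of WBcel235 and not from the count files.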

Additional observations from a re-analysis of the deposited data

Results flagged for a closer look

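The effect of ebax-1 on miR-43 differed between L4 and L3 larvae by 1.16 on the log2 scale (interaction, adjusted p = 0.0103 by edgeR), and this test was lost without any 1 of 3 of the L3 libraries. The passenger strands of miR-43 (2.03, adjusted p = 0.0283) and miR-44 (2.04, adjusted p = 0.0295) differed by more in the same test. The effect on miR-43(M1) differed from that on wild-type miR-43 by -2.67 (interaction, adjusted p = 0.00161 by edgeR).

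Reads of forms that a strain does not carry were counted in 17 of 18 libraries of edited strains above the highest level in libraries without a mir-43 mutation (1.98 CPM). The highest was 116 CPM in replicate 2 of mir-43(M1); ebax-1(tm2321), or 6.98% of its miR-43 reads (exact binomial 95% interval 6.60 to 7.38%, counting error only), and the median over the 18 libraries was 0.498%. The row for miR-42 with a base change, mir-42_g8t, was at 728 to 1662 CPM in the 6 mir-43(M2) libraries, against at most 17.3 CPM in all others, while the miR-42 row was near 0 there.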

How the results depend on the processing

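Over 64 results, 616 alternative values were computed, of which 520 kept direction and side of the threshold, 44 lost and 32 gained a call and 20 changed direction. Of those 20, 1 belonged to a called result, the mutant difference between germline-depleted and gravid adults. The calls of ebax-1 effects in L3 larvae and germline-depleted adults and on wild-type miR-43 in the mir-43 experiment, and the difference between M1 and wild-type miR-43, held under all alternatives run. The causes of the changes below were not tested. Values are log2 differences.

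With all time course libraries in 1 fit, calls were lost in early embryos (0.80), late embryos (1.02) and L1 larvae (1.00) and gained in gravid adults (1.70). In fits of the compared stages alone, differences were called for late over early embryos (-0.54 in mutants, -0.63 in wild type) and L1 over late embryos (-0.52 in mutants, -0.63 in wild type), and lost in mutants for L2 over L1 (-0.87) and germline-depleted over gravid adults (0.31). DESeq2 gained calls in gravid adults (2.01), ju699 L1 larvae (0.92), L3 against L2 (1.56), germline-depleted against gravid adults (1.78) and M2 against wild-type miR-43 (-1.88), turned the M1 effect (-0.0087) and lost mutant germline-depleted over gravid adults (0.48). Library size scaling lost the mutant steps L2 over L1 (-0.74) and germline-depleted over gravid adults (0.16), and turned gravid adults over L4 in mutants (0.017) and the M1 effect (-0.13). Without a filter on low counts, the M1 effect turned (-0.011) and M2 against wild type was called (-1.81). Fits of 1 strain turned the M1 effect (-0.042 with the replicate block and -0.042 without it), gained M2 (0.88) and its passenger ratio (0.78) and lost M3 (1.34). A pseudocount of 5 gained the ratio in germline-depleted adults (2.94) and lost it in ju699 L1 larvae (1.16), and 0.5 lost that of the wild-type form (2.43).

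Same-numbered libraries of the mir-43(M2) and mir-43(M3) strains met the rule for pairing, which rests on correlations and not on labels. On their own libraries the replicate block (0.90 for M2, 0.78 for its passenger ratio and 1.28 for M3) gave the same calls as the fit without it. M1 did not meet the rule for pairing (-0.01 to 0.455), and the stages and wild-type mir-43, with fewer than 3 pairs, could not meet it. Correlations were 0.456 in gravid adults, 0.244 in L1 and 0.216 in ju699 L1 larvae. They ran from -0.489 to 0.08 at the other stages and for wild-type mir-43. Whether the numbers pair those samples is not decided by the rule. Replicate 3 stood apart in miR-70 in all 7 genotypes that have one. A replicate block over all 23 libraries, added for this after seeing the data, changed no call. At the stages and for the wild-type form, the block lost the L4 effect (3.01), the ratios in L2 larvae (-1.38), ju699 L1 larvae (1.23) and the wild-type form (2.08), and gained L3 against L2 (1.84) and germline-depleted against gravid adults (2.01). It changed no other call, beside those of the fits of 1 strain, and 53 of 63 such values kept direction and side. A crossed pairing, chosen after seeing the data since same-numbered deviations had correlations of -0.231 in early embryos and -0.489 in L3 larvae, kept both calls (0.84 and 1.92). Leaving out the mir-43(M1) libraries, also chosen after seeing the data, changed no ratio call.

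Leaving out 1 library at a time gave 0.69 to 1.03 in early embryos, -0.65 to 0.91 in L2, 2.84 to 3.18 in L4, 1.45 to 2.32 in gravid adults and 0.67 to 1.204 in ju699 L1 larvae. Passenger ratios ran from -1.88 to -0.88 in L2, 1.34 to 1.97 in L4, 2.04 to 3.47 in germline-depleted adults, 0.88 to 1.58 in ju699 L1 larvae and 2.08 to 2.89 for the wild-type form. Mutant steps ran from -0.34 to 0.0067 for late over early embryos, -1.95 to -0.51 for L2 over L1, -0.18 to 1.25 for L3 over L2, -0.54 to 0.44 for gravid adults over L4 and -0.25 to 0.84 for germline-depleted over gravid adults, and the wild-type step of gravid adults over L4 from 0.89 to 1.225. Interactions ran from -0.20 to 0.28 for late against early embryos, -0.065 to 0.17 for L1 against late embryos, -1.60 to -0.28 for L2 against L1, 0.95 to 2.63 for L3 against L2, 0.95 to 1.35 for L4 against L3, 1.35 to 2.31 for germline-depleted against gravid adults, -0.38 to 0.16 for ju699 against tm2321 and -0.65 to 0.054 for the mir-43 experiment against L4 larvae. For the forms they ran from -0.061 to 0.072 (M1), -0.18 to 0.038 (M1 to miR-44 passenger), 1.00 to 1.503 (M3), -2.12 to -1.45 (M2 against wild type) and 0.86 to 1.53 (level of M2, ebax-1 intact). Where 1 arm kept 1 library, its spread was taken from the other groups.

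The count of all called strands moved too, from 12 to between 0 and 37 in L4, from 1 to between 0 and 10 in gravid adults, from 39 to as few as 16 in early embryos, from 10 to between 2 and 18 in ju699 L1 larvae, from 31 to between 5 and 50 in M3, and up to 87 from 37 in late embryos, 37 from 17 in L1, 54 from 24 in L3, 32 from 12 in germline-depleted adults, 39 from 14 beside wild-type mir-43 and 38 from 20 in M1. With 2 libraries per arm, changes of 2-fold were rarely recoverable in L4 larvae and adults.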
